A study of Arabidopsis thaliana with 12 samples.

Results

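The nuclear-encoded photosystem I and II subunits of Arabidopsis thaliana were represented by 5 genes, PSBW, PSBY, PSB27, LHB1B2 and PSAN. They were chosen by name: each is the only gene that the platform annotation gives for its probe, and together they make up 5 of the 3439 probes of the array. Total RNA had been measured in 12 columns of array intensities from wild-type plants of ecotype Landsberg, all of them treated with 50 µM paraquat. The light group held 6 columns from plants returned to light for 30 min after a 12 h dark period, and the dark group held 6 columns from plants dark-adapted for 12 h. Paraquat, which diverts electrons of photosystem I to oxygen and so gives rise to superoxide, was thus present in both groups, and its own effect is not measured here. The labels name no tissue and do not say whether a group's columns stem from separate plants, so p-values measure the spread between columns, which may be technical. Light and the time of sampling cannot be told apart.

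Photosystem II splits water and photosystem I passes the electrons on towards ferredoxin, and both sit in the thylakoid membrane of the chloroplast. Their reaction centres are encoded in the plastid genome, whereas some of the small subunits, the antenna proteins and many assembly factors are encoded in the nucleus and imported. Transcripts of nuclear photosynthesis genes are known to respond to light, to the circadian clock and to signals from the chloroplast.

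The deposited intensities ended at 100, a value that 11 of the 12 columns held, and each column listed between 129 and 148 probes at 0. No value of the 5 genes was at 0 or at 100. Column totals lay between 3466 and 3509 in light and between 3467 and 3664 in dark. Columns were quantile-normalised and log2-transformed for the test across all probes (limma), whereas the levels below are intensities as deposited, in arbitrary units. A fold from the test can therefore differ from a ratio of the levels. Probes bind their targets with different strength, so the level of one probe does not give an amount of transcript relative to another. Bulk RNA of whole samples also does not separate fewer cells that express a gene from less RNA per cell.

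PSBW showed the clearest difference of the 5 genes, with higher intensity in light. PSBW (AT2G30570) encodes a small membrane-spanning protein of photosystem II that stabilises its supercomplexes with the antenna. Its intensity was 22.0 at the lowest, 23.8 at the median and 26.2 at the highest in light, against 15.4, 17.9 and 20.2 in dark. Every light column lay above every dark column in the deposited values. After quantile normalisation the lowest light and the highest dark column tied at 21.0. Of all 3409 probes tested, 4.66% had groups that did not overlap in the deposited intensities. The means were 23.9 ± 1.55 in light and 17.7 ± 1.87 in dark (SD, n = 6 each), a ratio of 1.35.

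On the quantile-normalised scale the PSBW difference was log2 0.24, or 1.18-fold (95% interval 1.07 to 1.30), and narrowly missed the threshold of 0.05 (limma adjusted p = 0.0543 over 3409 probes). With the replicate number as a block the size was the same and the gene passed (limma adjusted p = 0.0409). This call was lost with a random block for consecutive numbers added (limma adjusted p = 0.0728), and none was made on averaging those numbers (limma adjusted p = 0.535). It also passed with the values as deposited, where the difference was log2 0.44, or 1.35-fold (95% interval 1.20 to 1.53; limma adjusted p = 0.0113). PSBW was higher in light in 6 of 6 same-numbered comparisons. The same direction in all 6 comparisons was found for 22.2% of the probes tested.

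PSBY had nearly the same mean in light and dark, and a difference was not detectable. PSBY (AT1G67740) encodes a precursor that is cut into a pair of small membrane-spanning proteins of photosystem II. Its intensity was 0.968, 1.19 and 1.31 in light (lowest, median and highest), against 1.07, 1.21 and 1.26 in dark. The light columns reached both above and below the dark ones. The fitted difference was log2 -0.0024, with a 95% interval from 0.876-fold to 1.14-fold (limma adjusted p = 0.992). Its spread was the smallest of the 5 genes in dark, at 6.36% of the mean, and second to PSBW in light, at 10.3%.

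PSB27 was the most variable gene and showed no difference beyond its spread. PSB27 (AT1G03600) encodes a lumenal protein that binds photosystem II during assembly and repair rather than in the finished complex. Its intensity was 0.576, 1.29 and 1.49 in light (lowest, median and highest), against 0.443, 1.08 and 1.42 in dark. The 4 columns of numbers 1 and 2 lay between 0.443 and 0.816, and the 8 columns of numbers 3 to 6 lay between 1.08 and 1.49, in both groups. The fitted difference was log2 0.14, with a 95% interval from 0.648-fold to 1.87-fold (limma adjusted p = 0.891). Without dark column 2, the lowest of all, it was log2 -0.096.

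LHB1B2 was bright in all columns, and its groups overlapped. LHB1B2 (AT2G34420) encodes a chlorophyll a/b-binding protein of the main light-harvesting antenna of photosystem II. It belongs to a family of close copies, and whether its probe also took up signal from other copies was not tested. Its intensity was 10.4, 11.6 and 14.8 in light (lowest, median and highest), against 9.26, 10.4 and 13.1 in dark. The light and dark values shared most of their range, and number 5 gave the highest column of each. The fitted difference was log2 0.013, with a 95% interval from 0.883-fold to 1.15-fold (limma adjusted p = 0.968), and as deposited it was log2 0.14 (limma adjusted p = 0.551). Without light column 5 the fitted difference was log2 -0.041.

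PSAN had a higher mean in light, but within a wide spread. PSAN (AT5G64040) encodes a lumenal subunit of photosystem I that helps plastocyanin to dock. Its intensity was 4.43, 7.32 and 8.78 in light (lowest, median and highest), against 3.89, 4.89 and 7.23 in dark. Of the light columns, 3 lay above all dark columns and the columns of numbers 3 and 4 lay among the lower dark values. The means were 6.86 ± 1.95 in light and 5.34 ± 1.28 in dark (SD, n = 6 each). The fitted difference was log2 0.17, with a 95% interval from 0.812-fold to 1.55-fold (limma adjusted p = 0.742). As deposited it was log2 0.34 (limma adjusted p = 0.440). With the replicate block and deposited values the 95% interval was 1.03-fold to 1.56-fold, and PSAN did not pass (limma adjusted p = 0.127). That setting was added after seeing the data.

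**Figure D1:**
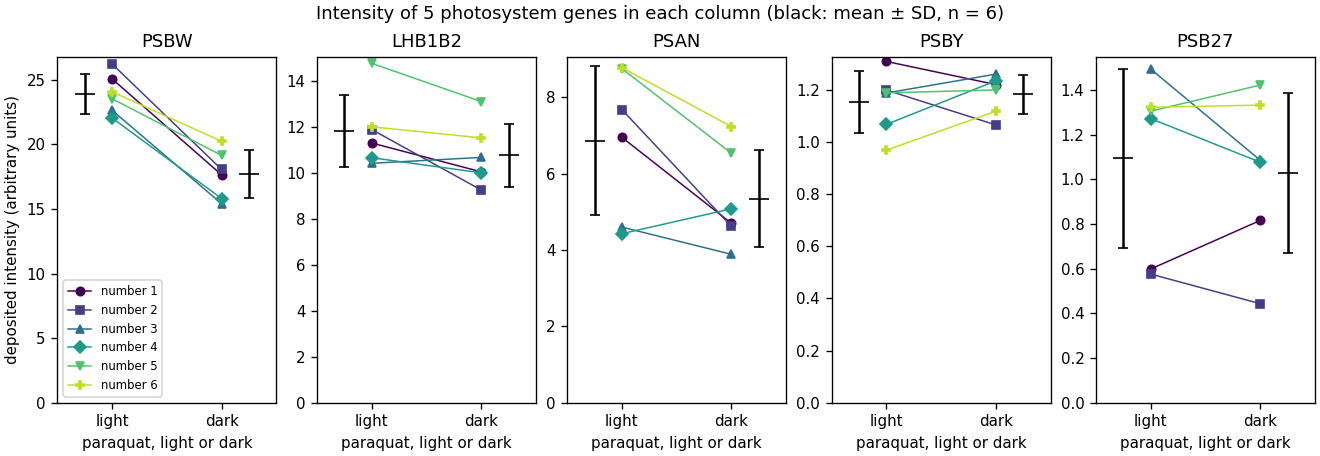
Deposited intensity (arbitrary units, axes from 0) of the 5 genes, with light columns on the left and dark columns on the right of each panel; lines join columns of the same replicate number and black marks give mean ± SD (n = 6). The 6 PSBW values in light, 22.0 to 26.2, lie above the 6 in dark, 15.4 to 20.2, and the other genes overlap.

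In the fit without a block, 0 of the 5 genes passed the threshold, against 5.78% of all 3409 probes (197 probes), and 1 of the 5, PSBW, had an unadjusted p under 0.05, as did 683 of all probes. With the replicate block, 1 of the 5 passed, against 13.1% of all probes. With the values as deposited, 1 of the 5 passed, against 5.25% of all probes. With so few genes these counts do not set the 5 apart from the rest of the array. The 95% intervals of PSB27 and PSAN in the fit without a block reached 1.5-fold and beyond. With the replicate block they ran from 0.893-fold to 1.36-fold for PSB27 and from 0.944-fold to 1.33-fold for PSAN. Those of PSBY and LHB1B2 with the block were 0.863-fold to 1.15-fold and 0.916-fold to 1.11-fold.

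The replicate number accounted for most of the variation of 4 genes. Of the sum of squares of the log2 deposited values of PSB27, 0.534% lay between light and dark, 91.9% between numbers and 7.59% in the rest. Numbers held 73.2% for LHB1B2, 68.2% for PSAN and 59.4% for PSBY. For PSBW this was turned round, with 78.2% between light and dark and 16.0% between numbers. The medians over 2554 probes without zeros and above the lower quartile of mean intensity were 11.1% between light and dark and 57.7% between numbers. The share between numbers of PSBY was thus close to that of the array. Noise alone also puts a share between numbers, and this was not subtracted.

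Differences of light minus dark within a number varied in size among the genes. For PSBW they lay between log2 0.25 for number 6 and log2 0.56 for number 3 in the deposited values. Averaged by consecutive numbers, PSBW had log2 0.52 for numbers 1 and 2, log2 0.52 for 3 and 4, and log2 0.27 for 5 and 6. PSAN was higher in light in 5 of 6 numbers, by up to log2 0.73 for number 2, and number 4 had log2 -0.20. LHB1B2 was higher in 5 of 6, with log2 0.36 for number 2 as the largest and log2 -0.035 for number 3. PSBY was higher in numbers 1 and 2 and lower in 3 to 6, between log2 -0.21 and log2 0.17. PSB27 was higher in 3 numbers and lower in the other 3, between log2 -0.45 for number 1 and log2 0.46 for number 3.

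**Figure D2:**
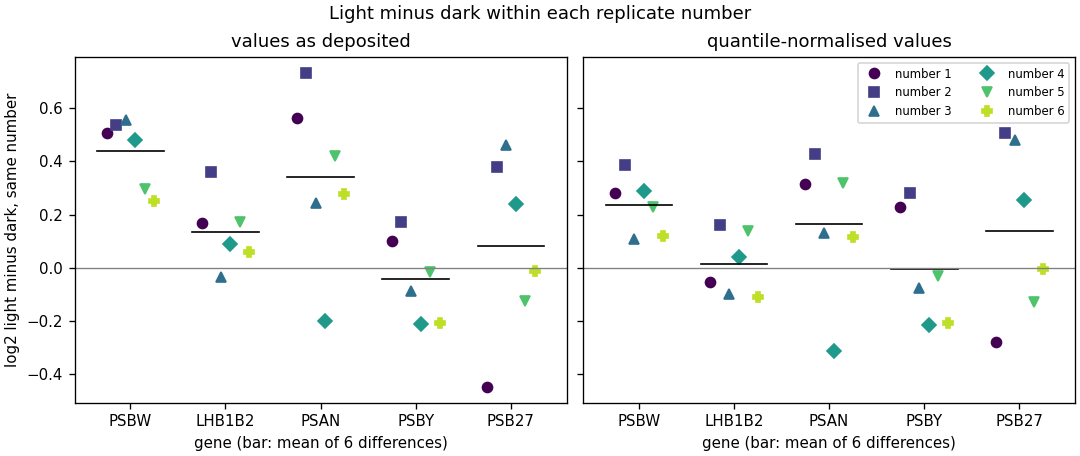
Log2 difference of light minus dark for each replicate number (1 marker per number) and gene, with the values as deposited on the left and quantile-normalised on the right; bars are means of the 6 differences. All 6 PSBW differences are above 0 in both panels, while the differences of the other genes fall on both sides of 0.

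A ratio of a pair of genes within 1 column does not change when the column is multiplied by a factor. It can still shift where light and dark columns differ by an amount that depends on intensity, as given by rank below. All 10 pairs were tested by two-sided exact permutation of the columns, and p-values were adjusted over the 10. The intensity ratio of PSBW to PSBY was 19.1, 20.2 and 24.9 in light (lowest, median and highest), against 12.2, 15.2 and 18.1 in dark. The groups did not overlap, which also held for PSBW alone. The share of other probe pairs with such ratios was not computed. The log2 ratio differed by 0.48 (two-sided exact permutation p = 0.00216, the lowest that 6 against 6 columns allow, adjusted p = 0.0216). The ratio of PSBW to PSBY was thus higher in light in the deposited values if the 12 columns are taken as separate samples. Columns of consecutive numbers deviated together, however. Averaging them left 3 against 3 columns (two-sided exact permutation p = 0.1, the lowest possible there), which cannot decide the question. How much of the ratio difference came from such a difference across intensities was not tested. With sign changes within the 6 same-numbered pairs, where no p under 0.03125 can occur, the adjusted p was 0.0625. A ratio at that lowest p cannot pass alone after adjustment over the 10. With quantile-normalised values, which do alter ratios, the difference was log2 0.24 (exact permutation adjusted p = 0.303).

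The other 9 ratios did not pass. The ratio of PSBW to LHB1B2, a core-side subunit against the antenna, was 1.59, 2.12 and 2.22 in light (lowest, median and highest), against 1.44, 1.67 and 1.95 in dark. It was higher in light in 6 of 6 numbers, by log2 0.30 on average (two-sided exact permutation p = 0.0173, adjusted p = 0.0866). The lowest light value belonged to column 5, where LHB1B2 was highest, and without that column the difference was log2 0.37 (exact permutation adjusted p = 0.0216). Without dark column 2 it was log2 0.35 (exact permutation adjusted p = 0.0433). When any of the other 10 columns was left out, the ratio did not pass (log2 0.26 to 0.32, exact permutation adjusted p = 0.13 to 0.173). The ratio of photosystem II subunit PSBW to photosystem I subunit PSAN was 2.69, 3.51 and 4.98 in light, against 2.80, 3.43 and 3.96 in dark, and differed by log2 0.098 (exact permutation adjusted p = 0.728). That ratio was higher in light in 2 numbers and lower in 4, so a difference in response between PSBW and PSAN was not detectable among these columns.

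Ratios of LHB1B2 to PSBY and of PSAN to PSBY were higher in light in 6 of 6 numbers each, by log2 0.18 and log2 0.38 on average. Neither passed (exact permutation adjusted p = 0.471 for both). The 4 ratios with PSB27 had the widest spread. PSBW over PSB27 ran from 15.2 to 45.5 in light and from 13.5 to 40.7 in dark, and its highest value in each group belonged to number 2. It too was higher in light in 6 of 6 numbers, by log2 0.36 on average (exact permutation adjusted p = 0.501, and 0.0625 with sign changes within pairs). Sign changes gave the same adjusted p of 0.0625 for each of the 5 ratios that were higher in 6 of 6 numbers. How often ratios of other probe pairs kept the same direction in 6 of 6 numbers was not computed.

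**Figure D3:**
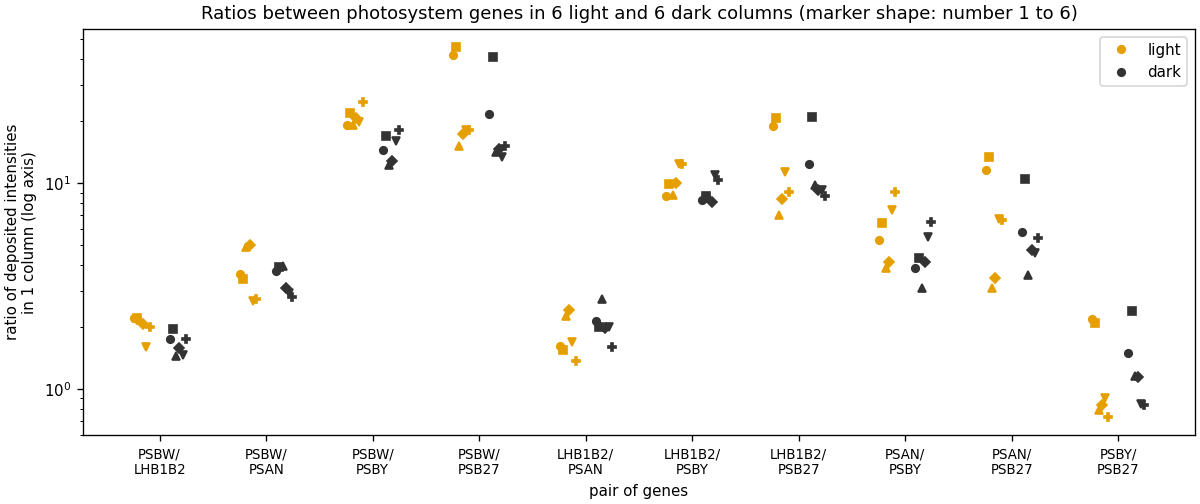
Ratios of deposited intensities between the 5 genes in each column (log axis), for all 10 pairs, with light in orange on the left and dark in black on the right; marker shapes stand for replicate numbers. PSBW over PSBY is the only pair whose light values, 19.1 to 24.9, lie clear of its dark values, 12.2 to 18.1. The intensities of PSBW alone are also clear of each other.

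The rank of a probe by intensity within its column is untouched by any monotone scaling. By mean intensity over the 12 columns, PSBW was 15th, LHB1B2 27th and PSAN 49th of 3439 probes, while PSBY was 567th and PSB27 674th. PSBW held ranks 12 to 14 in light and 14 to 16 in dark, a mean difference of -2.0 places, where a negative value means nearer the top in light. Its rank was nearer the top in light in 6 of 6 numbers (two-sided exact permutation p = 0.00649, adjusted p = 0.0802 over 3409 probes). No probe passed this test after adjustment, in which the smallest adjusted p was 0.0505, and 688 probes, or 20.2%, had an unadjusted p under 0.05. Among the 2579 probes above the lower quartile of mean intensity, 135 passed, and PSBW again did not (exact permutation adjusted p = 0.067).

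LHB1B2 stayed between ranks 23 and 31 in light and between 25 and 32 in dark, a mean difference of -0.17 places (exact permutation adjusted p = 1). PSAN ranged from 34th to 79th in light and from 40th to 85th in dark (exact permutation adjusted p = 0.837). PSBY lay between 457th and 801st in light and between 513th and 784th in dark (exact permutation adjusted p = 0.994). PSB27 spanned 363rd to 1682nd in light and 377th to 2224th in dark (exact permutation adjusted p = 0.939). Together the 5 genes held between 1.13% and 1.43% of the column total in light, against 0.915% to 1.19% in dark, most of it from PSBW and LHB1B2. PSBW alone held 0.634% to 0.747% in light and 0.439% to 0.579% in dark. For each of the other genes the share overlapped between the groups.

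How large a difference came out for the bright genes depended on the scaling. With columns divided by their median, PSBW had log2 0.49, LHB1B2 0.18 and PSAN 0.39, against 0.24, 0.013 and 0.17 after quantile normalisation. PSBW was the 1 of the 5 genes that passed, under each scaling except quantile normalisation (limma adjusted p = 0.0113 as deposited, 0.0124 by the median and 0.0121 by the interquartile mean). Of all probes, 6.13% passed by the median and 6.19% by the interquartile mean. Without probes under the lower quartile of mean intensity, PSBW also passed (limma adjusted p = 0.0497), as did 8.26% of the 2579 probes left. With the replicate block added to these other scalings PSBW passed beside 12.7% of all probes as deposited, 14.1% by the median and 14.9% by the interquartile mean. With consecutive numbers taken as a random block it passed as deposited (limma adjusted p = 0.0406), beside 1.26% of all probes, but not after quantile normalisation (limma adjusted p = 0.175). The median difference of all 3409 probes moved little, from log2 -0.027 as deposited to log2 0.020 by the median. The 100 brightest probes had a median of log2 0.14 as deposited and log2 0.016 after quantile normalisation.

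**Figure D4:**
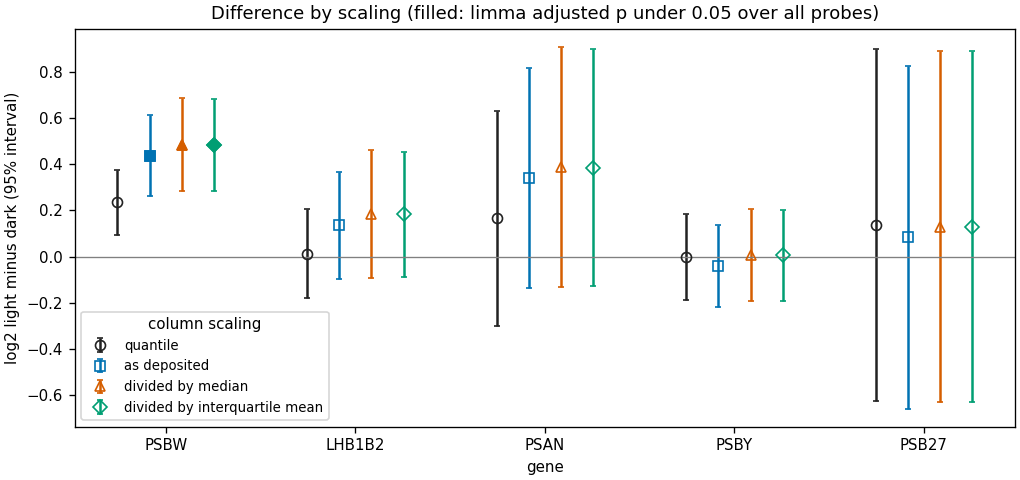
Log2 difference of light minus dark with its 95% interval for each gene under 4 column scalings; filled markers passed an adjusted p of 0.05 over all probes (limma). PSBW lies above 0 under each, from 0.24 to 0.49, and is filled under 3 of the 4.

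The intensity found at a given rank, whichever probe held it, differed between the groups in the range where the bright genes lie. The direction was opposite nearer the top, with log2 -0.63 at rank 2 and log2 -0.39 at rank 5. Of the 30 brightest probes, 17 were higher in light as deposited. At rank 15, which PSBW held in 3 dark columns, the intensity was 21.0 ± 0.994 in light and 18.0 ± 1.73 in dark (SD, n = 6 each; log2 0.22, two-sided exact permutation p = 0.00649). The difference varied widely near that rank. Within ranks 12 to 16, those held by PSBW in the 12 columns, it lay between log2 -0.026 and log2 0.28. Over ranks 23 to 32, those of LHB1B2, it lay between log2 0.080 and log2 0.27, and over ranks 34 to 85, those of PSAN, between log2 0.098 and log2 0.21. Quantile normalisation sets the columns equal at each rank and so takes such differences out. It lowered the difference of PSBW by log2 0.20, of PSAN by log2 0.17 and of LHB1B2 by log2 0.12. The part left for PSBW after this step was the log2 0.24 given above. Over the ranks held by PSBY and PSB27 the difference lay between log2 -0.067 and log2 -0.018. The test at rank 15 was not adjusted. Because PSBW itself held that rank in 3 dark columns, the test is not independent of the PSBW difference.

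**Figure D5:**
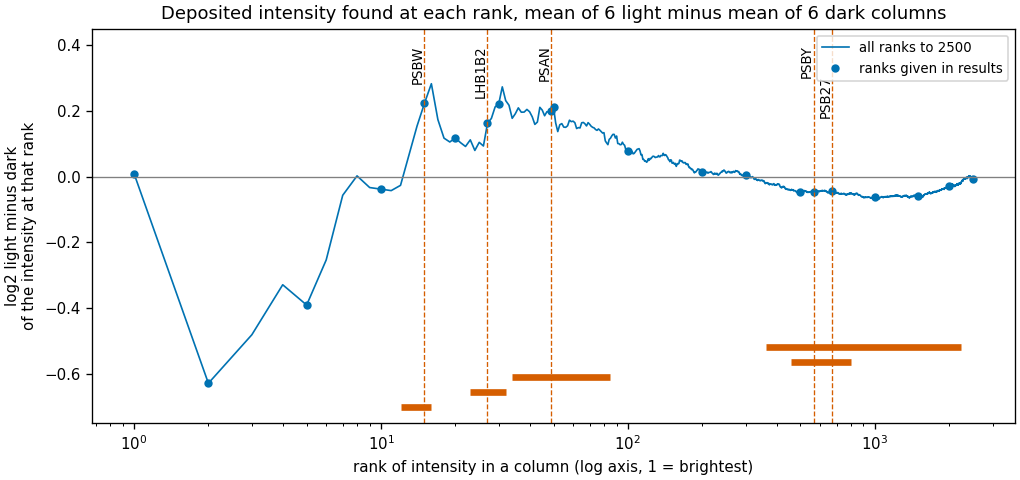
Log2 difference between light and dark columns of the deposited intensity found at each rank (log axis, 1 is the brightest probe of a column); dashed lines mark the rank of each gene's mean intensity and orange bars the ranks it held in the 12 columns. The curve lies between -0.026 and 0.28 over the ranks of PSBW (12 to 16). It is above 0 over those of LHB1B2 and PSAN, and slightly below 0 over those of PSBY and PSB27.

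The genes whose quantile-normalised log2 profile over the 12 columns was most like that of each subunit were taken among 502 probes with 1 gene name. These columns share replicate numbers and light conditions, so the correlations are given as a description. PSBW was most like AT2G35390 (Pearson r = 0.88) and AT5G55580, named mTERF9 in RefSeq (r = 0.87). PSB27 was most like AT5G42070 (r = 0.95) and AT5G63290 (r = 0.94), and PSAN like AT1G13990 (r = 0.86) and AT3G09080 (r = 0.85). LHB1B2 was most like AT2G28790 (r = 0.82) and then PSB27 (r = 0.80). Another of the 5 genes was among the 2 most alike in that list only. PSBY had the weakest partners, AT3G04560 (r = 0.68) and AT1G63720 (r = 0.65). Between PSBW and LHB1B2 the correlation was -0.10, and between PSBW and PSAN it was 0.35.

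Few other genes of the photosynthetic apparatus were measured by a probe naming 1 gene. Of 96 loci in 7 lists, 8 were, the 5 subunits among them, and 0 of these 8 passed in either direction in the fit without a block, in which 5.78% of all probes passed. The lists of electron carriers, chloroplast ATP synthase and Rubisco small subunits had no such probe, and 8 of the 96 loci lay on probes that name several genes. The 3 further genes belonged to assembly and repair. LPA19, a relative of PSB27 that takes part in photosystem II assembly, had intensities of 0.478 ± 0.0668 in light and 0.418 ± 0.0656 in dark (SD, n = 6 each; log2 0.22, limma adjusted p = 0.416). AT1G54500, for the thylakoid rubredoxin RBD1, had 0.594 ± 0.0514 in light and 0.507 ± 0.0413 in dark (SD, n = 6 each; log2 0.26, limma adjusted p = 0.103). AT1G22700, for the photosystem I assembly factor PYG7, had 0.259 ± 0.102 in light and 0.341 ± 0.0654 in dark (SD, n = 6 each; log2 -0.44, limma adjusted p = 0.331).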

How the data were processed

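The authors deposited 1 table of linear array intensity values for 3439 probes in 12 columns; no source used here gives the array type, background treatment or scaling. Columns were assigned to light or dark from the titles, with numbers 1 to 6 in each. The number of arrays limits the precision. Columns were quantile-normalised with zeros kept at 0 and transformed as log2(value + 2.53e-05), the lowest positive value. The 30 probes at 0 throughout were left out, and 3409 entered the fit (limma 3.58.1, R 4.3.3, with lmFit and eBayes, two-sided, Benjamini-Hochberg, threshold 0.05). Ratios, as deposited, and ranks were compared by exact permutation over all splits of 6 against 6 columns (Python 3.11.15, numpy 2.4.6, pandas 2.3.3, scipy 1.17.1; figures with matplotlib 3.10.9). Procedures were tested on simulated data.

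Deviations from the group mean correlated by 0.66 to 0.786 between same-numbered columns over 2554 probes, and for 12 of 12 columns the best match in the other group had the same number. Every correlation being over 0.1, the numbers were taken to pair the columns, from the values and not from the labels. Columns of consecutive numbers in a group also deviated together (mean correlation 0.30), so n = 6 may overstate the number of samples.

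Gene names came from the platform annotation and may be outdated: 692 carried 1 gene name, 870 several and 1877 none, and 690 of the 692 matched a locus in RefSeq (assembly TAIR10.1, used for names only). Named were the 5 genes, the 2 most correlated probes of each, and measured loci of the 7 pathway lists. The genes and lists were chosen with earlier results of these data known. Alternatives covered scaling, offset, dim probes, blocks, averaging, moderation, runs of probe numbers and left-out columns.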

Additional observations from a re-analysis of the deposited data

Results flagged for a closer look

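LHB1B2 had an intensity of 14.8 in light column 5, against 10.4 to 12.0 in the other 5 light columns. It was flagged because this column stood far from the rest of its group. It was the only column flagged among 10 groups of 6 values, and chance flags about 1 group in 20. Dark column 5 was also the highest of its group for LHB1B2, at 13.1.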

How the results depend on the processing

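PSBW was higher in light in each setting tried, between log2 0.20 and 0.49. It passed the threshold as deposited (log2 0.44, limma adjusted p = 0.0113), with columns divided by the median (0.49, 0.0124) or interquartile mean (0.48, 0.0121), without dim probes (0.24, 0.0497) and with the replicate block (0.24, 0.0409). In settings added after seeing the data it also passed with the replicate block under these other scalings (0.44, 0.49 and 0.48, limma adjusted p = 0.0109, 0.0147 and 0.014), and as deposited with consecutive numbers as a random block (0.44, 0.0406). In each of these, 1 of the 5 genes passed. It did not pass, on the quantile scale, with consecutive numbers as a random block (limma adjusted p = 0.175), with both blocks (0.0728), with consecutive numbers averaged (0.535, where 0 probes passed and 335 had an unadjusted p under 0.05), with the offset of 0.1 (0.0574), with trend and robust moderation (0.114), or centred within runs of 96 probe numbers (log2 0.21, 0.108). Leaving out 1 column or 1 number gave log2 0.20 to 0.28 with 0 to 1 genes called, the 1 being PSBW without light column 3 (limma adjusted p = 0.0435). The replicate block changed no other call of the 5 genes.

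PSBY turned to log2 0.0067 and 0.0056 with columns divided by the median or interquartile mean, with or without the block, and LHB1B2 to log2 -0.0067 within runs. On leaving out columns or numbers, PSBY ranged from -0.058 to 0.044, PSB27 from -0.096 to 0.30 and LHB1B2 from -0.041 to 0.049, none passing. PSAN kept its direction, from 0.065 to 0.39. On leaving out columns, ranks of PSBY ranged from -35.4 to 41.6 places, of PSB27 from -278 to 145 and of LHB1B2 from -0.87 to 0.73. With sign changes within pairs (a replicate block, lowest adjusted p = 0.0625) 0 ratios passed. In that test a ratio at the lowest possible p cannot pass alone after adjustment, so it cannot show a weaker difference. With quantile-normalised values 0 ratios passed, and LHB1B2 over PSB27 turned to log2 -0.13. Ranks among the 2579 probes above the lower quartile gave 135 calls, against 0 among all 3409, and none of the 5 genes passed in either. Leaving out columns gave 1 to 2 ratios, with ranges of -0.11 to 0.24 for LHB1B2 over PSB27 and -0.32 to 0.071 for PSBY over PSB27. Averaging left 3 against 3 columns, where no exact p under 0.1 can occur. Over all probes the fit called 448 with the block, 432 to 508 with the block and another scaling, 43 with the random block (43 as deposited), 131 within runs and 46 to 168 on leaving out columns or numbers. Where a setting changed a call, the cause was not tested.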
